A study of Mus musculus with 7 samples.

Results

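The genes described here are the Wnt ligands, their receptors and the proteins that tune them at the cell surface: 50 protein-coding genes taken by symbol out of 53379 gene IDs counted. They comprise 19 Wnt ligands, 4 R-spondins, 10 Frizzled receptors, the co-receptors Lrp5 and Lrp6, the R-spondin receptors Lgr4 and Lgr6, the scaffolds Axin1 and Axin2, the ubiquitin ligases Rnf43 and Znrf3, and 9 secreted inhibitors. RNA was sequenced from mouse endometrial epithelial cells, which line the uterine lumen and form its glands, after magnetic selection with an EpCAM antibody. The mutant group, LtfCreBrg1flfl, holds 4 libraries, each from 1 CD-1 mouse aged 120 days with the genotype LtfCre 0/+; Brg1 fl/fl. Cre is driven here by Ltf, the lactoferrin gene, which is active in uterine epithelium. The gene Smarca4 encodes Brg1, which powers SWI/SNF complexes in moving nucleosomes. The Control group holds 3 libraries, labelled Control wild-type and made from cells of pooled CD-1 mice, so the controls lack Cre as well as the floxed allele. The labels do not say whether the 3 pools came from different mice, and they give a first flow cell for the control libraries only. They were taken over from earlier work, and the sources used here state no age for them. The p-values therefore measure the spread between these single mice and these pools, fitted together for each gene. A pool averages over its mice, so the spread among the controls is not a spread between single mice. The comparison addresses which transcripts of this epithelium differ between these LtfCreBrg1flfl mice and these control pools.

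A Wnt protein is lipid-modified by Porcn, carried out of the cell by Wls and received by a Frizzled receptor with Lrp5 or Lrp6. Without it, a complex built on Axin and Apc marks beta-catenin for destruction; with it, beta-catenin accumulates and acts with TCF/LEF factors on genes such as Axin2. R-spondins, bound by Lgr4 to Lgr6, remove Rnf43 and Znrf3, which otherwise take Frizzled off the surface. In the mouse uterus, epithelial Wnt7a and stromal Wnt4 and Wnt5a are known for their parts in tract patterning and gland formation.

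The 7 libraries held 12436971 to 25862245 reads in genes, with less depth in mutants (at most 13364080) than in controls (at least 21372036). Levels are given in counts per 1000000 gene reads (CPM), scaled by the TMM factors used in the test, so that levels and fold changes are on 1 scale. A count of 3 reads equalled 0.182 to 0.234 CPM in mutants against 0.136 to 0.158 CPM in controls, for counting error only. Smarca4, the targeted gene, lay at 87.4, 56.6, 86.8 and 105 CPM in mutant replicates 1 to 4 and at 263, 245 and 279 CPM in the controls (log2 fold change −1.64 ± 0.23 SE, edgeR quasi-likelihood test with Benjamini-Hochberg adjustment, adjusted p = 0.00967). Epcam, the sorted antigen, lay at 573 to 742 CPM in mutants against 821 to 965 CPM in controls. Mutant replicate 1 stood apart from the other mutants, with a Pearson correlation across genes, which are no replicates, of 0.811 to 0.887 with each of them, against 0.893 to 0.961 among the others. Member calls that came or went without it are given with the genes or in the paragraph on single mutant libraries. Shifts in value without it are given for some members, but not for most of those given by range. Summed over 9 gland markers, mutant replicate 1 had 13582 CPM, the others had 139, 142 and 544 CPM, and the controls had between 9887 and 50234 CPM. The 8 lumen markers summed to 653 CPM in mutant replicate 1, 2645 to 4984 CPM in the other mutants and 6153 to 8844 CPM in controls and include Wnt7a and Ltf. The sums of 14 markers of stroma, which the sort should remove, lay between 418 and 1106 CPM in mutants, against 966 to 1124 CPM in controls. Fn1 alone held 189 to 627 CPM of the mutant sums and 227 to 344 CPM of the control sums, whereas 11 of the 14 had negative log2 fold changes (median −0.77) and Dcn was called lower (−1.77, edgeR adjusted p = 0.00888). Summed markers were 32.5 to 60.8 CPM in mutants against 28.1 to 33.3 CPM in controls for endothelium, 428 to 724 against 534 to 722 CPM for leukocytes, 16.0 to 102 against 77.5 to 130 CPM for smooth muscle and 9.36 to 39.7 against 43.1 to 58.5 CPM for mesothelium. The endothelial sum ran against its list, in which Flt1 was called higher (6.09 to 37.3 against 4.65 to 5.84 CPM) and the other 7 tested genes had negative values (list median −0.51). Of the 10 tested leukocyte markers, 4 had positive and 6 negative values. Cd3e among them was lower in every mutant (0 to 2.52 against 7.08 to 18.4 CPM) without passing (−4.02, edgeR adjusted p = 0.0617). The part of other cell types in the results was not tested. Epithelial markers summed to 8710 to 11896 CPM in mutants, below the 17376 to 21556 CPM of controls. Of these 11 markers, 9 had negative log2 fold changes (median −0.71), and Cdh1 and Krt8 were called lower. Grhl2 was called higher (0.80, edgeR adjusted p = 0.0406), and Esrp1 lay at 0.08. Ltf lay at 82.5, 2020, 1143 and 1542 CPM in mutants against 2935 to 3681 CPM in controls. In bulk libraries, fewer cells of a type and less RNA per cell cannot be told apart. Genotype, library set and pooling of mice coincide and cannot be told apart either.

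Of the 50 genes, 19 reached a mean of 10 CPM in a group, 14 lay between 1 and 10 CPM, 11 were under 1 CPM and 6 had no read in any library. The 6 without a read were Wnt1, Wnt3, Wnt3a, Wnt8a, Wnt8b and Rspo2. Under 1 CPM in both groups were Wnt2, Wnt6, Wnt9b, Wnt10a, Wnt10b, Rspo4, Fzd9, Dkk1, Dkk2, Dkk4 and Sfrp5. The filter on low counts kept 31 genes for the test, and 3 of them passed: Wnt7a was higher in mutants, and Wnt9a and Axin1 were lower. That is 3.23% of the tested members higher, against 5.37% of all 14610 genes tested, and 6.45% lower, against 6.18% of all genes, so these shares lay near the background. For 8 of the 31 (25.8%) the groups were separate, without overlap, as they were for 31.4% of all genes tested. Those were Wnt7a and Fzd2, higher in every mutant, and Wnt2b, Wnt9a, Fzd5, Fzd8, Axin1 and Axin2, lower in every mutant. The median log2 fold change of the 31 was −0.09, and that of all genes 0.06. Upper-quartile scaling moved the median of all genes to 0.20 and total count scaling to 0.41, and with them the share of all calls that were higher went from 46.5% to 62.6% and 80.5%. The members' medians moved alongside, to 0.04 and 0.27. A same-strand gene overlaps Fzd3, Rnf43, Rspo3 and Wnt2b, so how reads were split between those pairs is uncertain. In the authors' deposited table of their own comparison, Fzd2 was higher and Axin1, Axin2 and Wnt9a were lower among the 35 members with an adjusted p, against 8.85% higher and 8.34% lower of all its genes. That table also gives a fold change for Wnt3a, which had no read in the 7 libraries in either the reverse-strand or the unstranded counts used here, and the sources used here do not state which counts that value rests on.

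The promoters of Wnt7a, Wnt9a and Axin2 are shown because Wnt7a and Wnt9a were the ligands that passed the test, in opposite directions, and Axin2 is the textbook beta-catenin target among the members. Each line gives the 250 bases before the start site in RefSeq's annotation of GRCm38.p6, 5′ to 3′ on the gene's own strand, with CG dinucleotides in capitals. The windows are chr6:91411354-91411603 on the minus strand for Wnt7a, chr11:59306680-59306929 on the plus strand for Wnt9a and chr11:108920099-108920348 on the plus strand for Axin2.
Wnt7a: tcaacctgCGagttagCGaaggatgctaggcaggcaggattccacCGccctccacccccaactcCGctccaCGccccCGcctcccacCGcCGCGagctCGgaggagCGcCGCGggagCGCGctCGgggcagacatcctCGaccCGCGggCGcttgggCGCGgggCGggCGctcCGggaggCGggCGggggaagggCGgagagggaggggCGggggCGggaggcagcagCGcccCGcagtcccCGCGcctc
Wnt9a: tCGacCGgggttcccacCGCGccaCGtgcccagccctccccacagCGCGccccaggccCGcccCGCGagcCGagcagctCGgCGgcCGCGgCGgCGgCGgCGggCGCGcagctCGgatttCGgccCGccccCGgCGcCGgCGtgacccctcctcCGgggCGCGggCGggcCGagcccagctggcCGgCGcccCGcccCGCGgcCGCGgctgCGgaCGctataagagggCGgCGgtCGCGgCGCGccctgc
Axin2: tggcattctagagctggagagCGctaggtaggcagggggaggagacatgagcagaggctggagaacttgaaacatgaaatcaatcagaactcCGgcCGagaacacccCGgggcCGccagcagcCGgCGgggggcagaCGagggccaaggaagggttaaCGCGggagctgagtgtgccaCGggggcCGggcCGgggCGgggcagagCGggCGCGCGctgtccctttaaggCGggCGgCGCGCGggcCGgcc
They hold 34, 48 and 24 CG dinucleotides. The median over the 36 windows found for 32 of the 50 members was 21.5, and over all 32851 promoter windows in the table it was 6. The observed CG number divided by that from base composition had a median of 0.758 over the members' windows and 0.373 over all windows. It was 0.835 over the 10 members with a window that reached 10 CPM and 0.751 over the 4 members with a window and no read. CG-rich windows were found in members with and without reads. The TCF/LEF words CTTTGAA and CTTTGAT, searched on both strands, were in 3 of the 36 windows (8.33%) and in 7.48% of all windows of this length. The 3 belong to Dkk1, to 1 start of Wnt11 and to 1 start of Wnt5b, and none to the promoters printed above. The 1 window of Sp5, a Wnt target outside the members, held such a word. Sites outside these 250 bases were not searched, so their absence from a window does not mean that a gene lacks them.

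Wnt7a was the only ligand that passed as higher. It lay at 28.4, 47.2, 66.6 and 62.9 CPM in mutant replicates 1 to 4 and at 22.1, 15.2 and 22.7 CPM in control replicates 1 to 3. All mutants were above all controls, with mutant replicate 1 nearest to them. The difference was 2.57-fold (log2 fold change 1.36 ± 0.33 SE, edgeR adjusted p = 0.0415). The gene spans bases 91363981 to 91411363 of chromosome 6 (GRCm38, minus strand). The fold change was 1.61 on the log2 scale without mutant replicate 1 (edgeR adjusted p = 0.00557). Leaving out any other library ended the call, at edgeR adjusted p from 0.0674 to 0.147, and so did testing without the filter on low counts (adjusted p = 0.0561). The authors' deposited table gives 1.38 with an adjusted p of 0.116.

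Wnt9a moved the other way from a low level. It had 3, 18, 11 and 7 reads in the mutants, or 0.234, 1.38, 0.769 and 0.425 CPM, and 101, 69 and 71 reads in the controls, or 5.32, 3.64 and 3.22 CPM. Every mutant lay below every control, and mutant replicate 1 was at the level of 3 reads. The fall was 5.76-fold (log2 fold change −2.52 ± 0.58 SE, edgeR adjusted p = 0.0352). The call was lost without mutant replicate 3 or 4 (adjusted p = 0.0796 and 0.0770, edgeR) and without any 1 control (adjusted p from 0.114 to 0.148). Wnt9a, at chromosome 11 from 59306928 to 59333552 on the plus strand, is a close neighbour of Wnt3a, which starts 16175 bases away on the minus strand and had no read. The ligand genes include 3 more such neighbours, Wnt6 with Wnt10a, Wnt9b with Wnt3 and Wnt10b with Wnt1, and none of those 6 genes had more than 12 reads over all libraries.

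Wnt7b, a ligand closely related to Wnt7a, was the most abundant ligand per length in 6 of 7 libraries. It lay at 40.4, 141, 204 and 166 CPM in mutant replicates 1 to 4 and at 125, 108 and 129 CPM in controls. Mutant replicate 1 was below all controls and the other mutants above them, and the difference did not pass (log2 fold change 0.19 ± 0.47 SE, edgeR adjusted p = 0.816). Per length, Wnt7b made up 52.8% ± 2.26 (SD, n = 3) of all Wnt ligand signal in RPKM (CPM divided by exon length in kilobases) in controls and 42.8% ± 18.9 (n = 4) in mutants. Wnt7a made up 13.4% ± 2.05 in controls and 24.9% ± 5.74 in mutants, with 16.3% in mutant replicate 1 as the lowest mutant share and 15.1% as the highest control share. Wnt9a made up 2.04% to 3.23% in controls and 0.128% to 0.773% in mutants. In the plot of ligand composition, mutant replicate 1 carries less Wnt7b and more Wnt11 and Wnt5a than any other library.

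**Figure D1:**
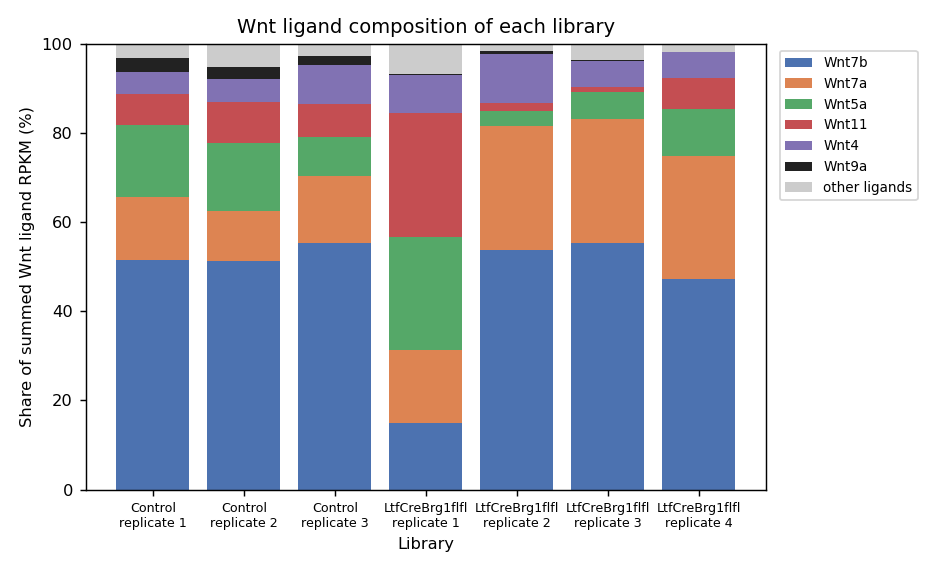
Share of each Wnt ligand in the summed Wnt ligand RPKM (y axis, percent) for each of the 7 libraries (x axis), as stacked bars. Wnt7b, Wnt7a, Wnt5a, Wnt11, Wnt4 and Wnt9a are drawn singly, and the other 13 ligands are pooled in grey. Wnt7b takes 51.4% to 55.4% in controls and 15.0% in mutant replicate 1, and Wnt7a takes a larger share in every mutant than in any control.

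Wnt4, a ligand of uterine gland development, lay at 19.7, 24.8, 18.2 and 17.1 CPM in mutants and 10.2, 9.24 and 17.2 CPM in controls. Mutant replicate 4 lay just under the highest control and the other mutants above it, and the difference did not pass (0.71 ± 0.29 SE, edgeR adjusted p = 0.143), except under total count scaling (adjusted p = 0.0372). Wnt5a, which signals mostly through receptors of planar polarity, lay at 109.7, 14.0, 36.6 and 59.3 CPM in mutants and 62.5, 51.0 and 32.3 CPM in controls. Its mutants spanned the controls on both sides. Wnt11, another ligand of that kind, lay at 63.4, 3.98, 3.29 and 20.9 CPM in mutants against 14.1, 16.6 and 14.5 CPM in controls. Mutant replicates 1 and 4 were above the controls and replicates 2 and 3 below them. Neither Wnt5a (0.18 ± 0.61 SE) nor Wnt11 (0.60 ± 0.96 SE) passed, and both values turned negative without mutant replicate 1 (−0.36 and −0.62). Wnt5b ranged from 0.766 to 8.74 CPM in mutants against 1.04 to 3.86 CPM in controls. Wnt2b lay at 0 to 1.03 CPM in mutants against 1.53 to 2.41 CPM in controls, without overlap and without passing (edgeR adjusted p = 0.159). Wnt16, at 0.390 to 3.70 CPM in mutants against 0.790 to 0.862 CPM in controls, was not tested.

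The R-spondins, which strengthen Wnt signals, were scarce. Rspo1 lay at 11.1, 0.230, 1.54 and 1.88 CPM in mutants and 5.63, 7.66 and 5.22 CPM in controls. Mutant replicate 1 was above every control and the other mutants below, and the difference did not pass (−0.75 ± 0.99 SE, edgeR adjusted p = 0.646), while Rspo1 was called lower without mutant replicate 1. Rspo3 had 84 reads in mutant replicate 4 and at most 10 in any other library, and was not tested. Lgr4, the main R-spondin receptor here, lay at 241, 86.8, 85.2 and 63.4 CPM in mutants and 93.9, 145 and 86.3 CPM in controls. It did not pass (0.14 ± 0.48 SE), and its value was −0.43 without mutant replicate 1. Lgr6 stayed at 0.312 to 3.08 CPM in mutants against 2.05 to 2.48 CPM in controls.

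**Figure D2:**
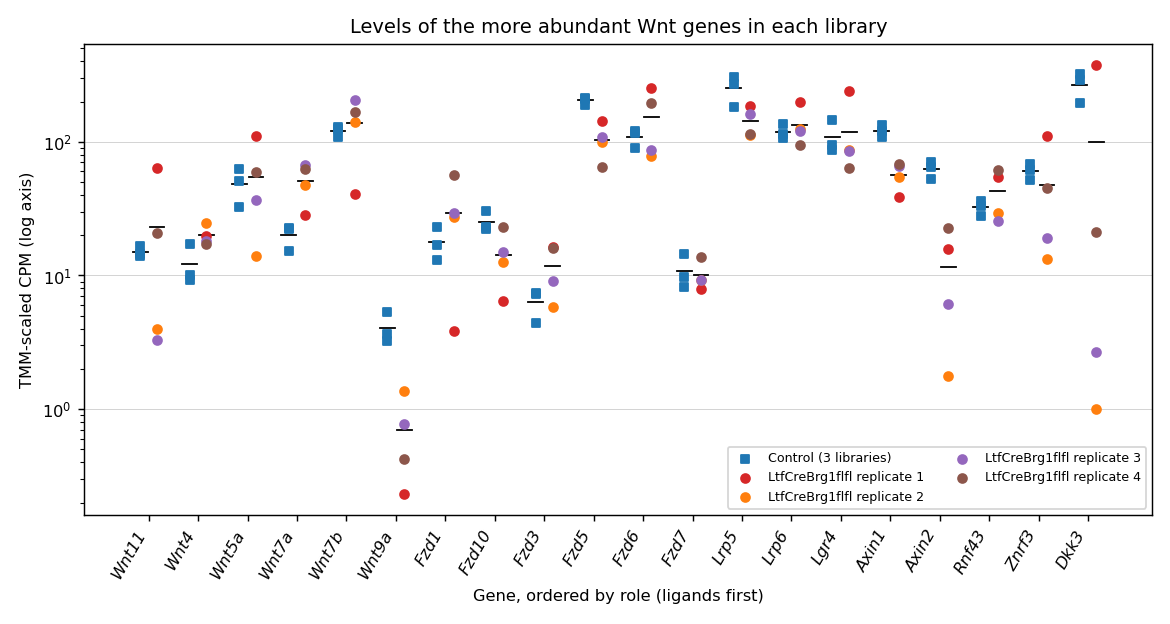
TMM-scaled CPM (y axis, log scale) of the 19 members with a mean of at least 10 CPM in a group, and of Wnt9a, in each library; squares are the 3 controls, circles the 4 mutants coloured by replicate, and bars the group means. Wnt9a, Fzd5, Axin1 and Axin2 lie lower in every mutant and Wnt7a higher, while Dkk3 and Wnt11 spread widely among the mutants.

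None of the Frizzled receptors passed the test. The most abundant of them in controls, per length, were Fzd5 (29.5 ± 2.05 RPKM) and Fzd6 (22.6 ± 3.59 RPKM; SD, n = 3). Fzd5, a receptor for canonical ligands, lay at 143, 99.1, 108 and 64.3 CPM in mutants and 209.8, 188 and 214 CPM in controls. Every mutant was lower, and the value just missed the threshold (−0.97 ± 0.26 SE, edgeR adjusted p = 0.0539). Fzd2 lay at 4.06, 7.35, 15.2 and 12.6 CPM in mutants and 3.42, 2.69 and 2.31 CPM in controls. Every mutant was higher, with replicate 1 close to the controls (1.81 ± 0.49 SE, edgeR adjusted p = 0.0547). Fzd2 was called higher and Fzd5 lower by DESeq2 (adjusted p = 0.00451 and 0.0180), and by edgeR when mutant replicate 1 was left out (0.00849 and 0.0105). The authors' deposited table gives 1.82 for Fzd2 with an adjusted p of 0.00360 and −0.96 for Fzd5 with 0.0755.

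Fzd6 lay at 252, 77.9, 87.2 and 196 CPM in mutants and 121, 117 and 89.2 CPM in controls, with mutant replicates 1 and 4 above the controls and replicates 2 and 3 below. Its value was 0.49 ± 0.44 SE, and 0.20 without mutant replicate 1. Fzd1 lay at 3.82, 27.26, 29.29 and 56.05 CPM in mutants and 22.96, 12.99 and 17.02 CPM in controls, so that mutant replicate 1 was alone below them. It had a value of 0.72 ± 0.72 SE and was called higher without that library (edgeR adjusted p = 0.0488). Fzd10 lay at 6.48, 12.6, 15.0 and 22.9 CPM in mutants and 30.3, 23.1 and 22.2 CPM in controls (−0.82 ± 0.39 SE). Only mutant replicate 4 reached the control range. Fzd3 lay at 16.5, 5.82, 9.09 and 16.0 CPM against 7.21, 7.34 and 4.45 CPM (0.90 ± 0.43 SE), and Fzd7 at 7.88, 9.27, 9.30 and 13.8 CPM against 14.5, 9.77 and 8.17 CPM (−0.10 ± 0.31 SE). The direction of Fzd7 flipped under total count (0.27) and upper-quartile scaling (0.04). Fzd8 ranged from 0.624 to 5.38 CPM in mutants against 7.26 to 7.76 CPM in controls, without overlap, and Fzd4 from 1.70 to 4.92 and 3.05 to 4.31 CPM.

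The co-receptors were abundant in both groups. Lrp5 lay at 184, 113, 162 and 114 CPM in mutants and 305, 271 and 181 CPM in controls, with 1 mutant inside the control range. Its value was −0.82 ± 0.26 SE (edgeR adjusted p = 0.0876), and it was called lower without mutant replicate 1 (adjusted p = 0.0311). Lrp6 lay at 198, 125, 119.5 and 94.6 CPM in mutants and 114, 136 and 106 CPM in controls (0.18 ± 0.27 SE, edgeR adjusted p = 0.685).

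The Axin scaffolds were lower in every mutant. Axin1, the scaffold of the beta-catenin destruction complex, lay at 38.3, 54.2, 65.8 and 68.2 CPM in mutants and 119.8, 108 and 134 CPM in controls. The highest mutant was well below the lowest control. The fall was 2.13-fold (log2 fold change −1.09 ± 0.23 SE, edgeR adjusted p = 0.0286), and the gene spans bases 26138688 to 26195811 of chromosome 17 (plus strand). Its call was lost under total count scaling (−0.72, edgeR adjusted p = 0.0957), without mutant replicate 2 or 3 (adjusted p = 0.0619 and 0.0568) and without any 1 control (adjusted p from 0.0983 to 0.125).

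Axin2, the feedback scaffold, lay at 15.8, 1.76, 6.15 and 22.6 CPM in mutants and 64.5, 70.6 and 53.1 CPM in controls. Its mutant values spread more than 10-fold yet all lay under the controls. Its value was −2.44 ± 0.71 SE, past DESeq2 (adjusted p = 0.00656) and limma-voom (adjusted p = 0.0306) but not edgeR (adjusted p = 0.0667). It was called lower by edgeR when mutant replicate 1 (adjusted p = 0.0489) or 2 (0.0464) was left out. The authors' deposited table gives −2.43 with an adjusted p of 0.0115. Summed over both scaffolds the level was 54.1 to 90.8 CPM in mutants against 179 to 188 CPM in controls.

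The ubiquitin ligases that clear Frizzled did not pass. Znrf3 lay at 111, 13.3, 19.2 and 45.2 CPM in mutants and 51.9, 61.6 and 68.7 CPM in controls, with replicate 1 above and the others below (−0.36 ± 0.67 SE, edgeR adjusted p = 0.750). Without mutant replicate 1 the value was −1.17 (edgeR adjusted p = 0.0868). Rnf43 lay at 54.9, 29.5, 25.5 and 61.9 CPM in mutants and 33.1, 36.1 and 27.9 CPM in controls (0.41 ± 0.34 SE, edgeR adjusted p = 0.456).

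**Figure D3:**
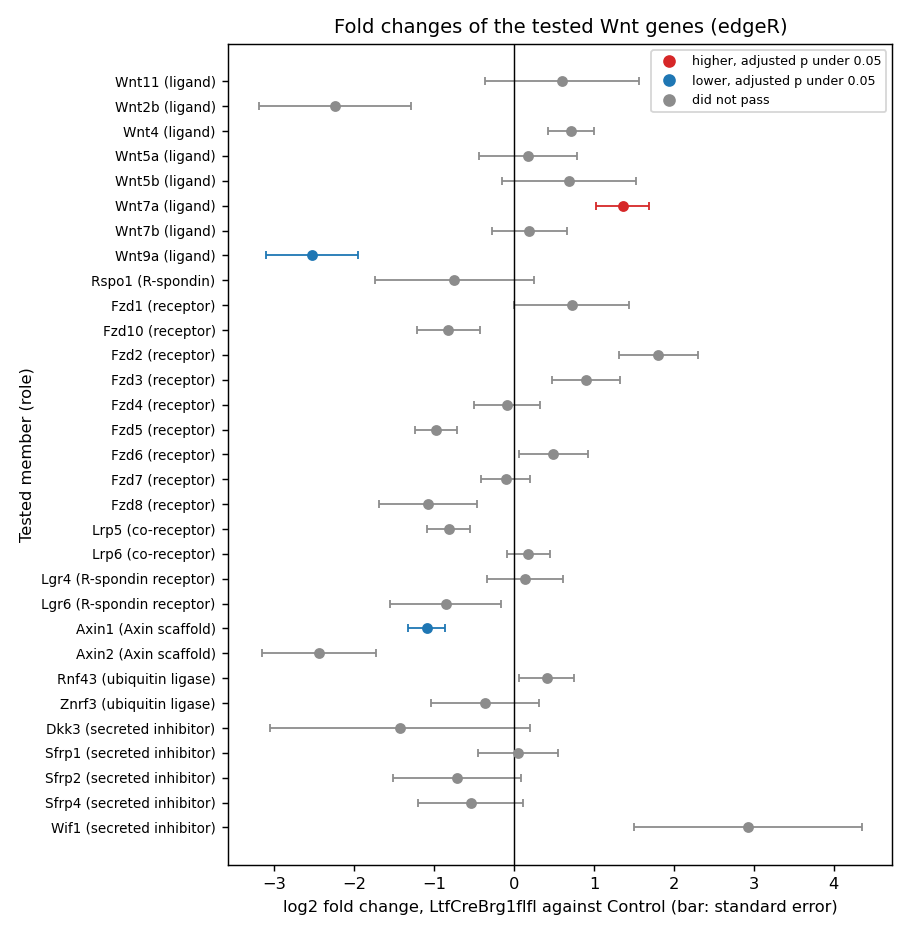
Log2 fold change of the 31 tested members, LtfCreBrg1flfl against Control (x axis, edgeR; bars are standard errors), by gene and role (y axis); red passed as higher, blue as lower and grey did not pass. Wnt7a passed as higher (1.36), Wnt9a (−2.52) and Axin1 (−1.09) as lower, and Fzd2, Fzd5 and Axin2 did not pass.

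Dkk3 was the most abundant member in controls per length, at 79.6 ± 19.5 RPKM (SD, n = 3). It is a divergent member of the Dickkopf family of secreted proteins. It lay at 373, 0.996, 2.66 and 21.3 CPM in mutants and at 194, 321 and 287 CPM in controls. Mutant replicate 1 was above every control, and the others were under all of them. The value was −1.43 ± 1.62 SE (edgeR adjusted p = 0.587), and −4.93 without mutant replicate 1 (edgeR adjusted p = 0.0173). The summed gland markers put the mutants in the same order, with nearly equal sums in replicates 2 and 3, and their part in the Dkk3 values was not tested. The secreted gland proteases Prss28 and Prss29 lay at 2709 and 8542 CPM in mutant replicate 1 and at most at 15.6 CPM in the other mutants, with no read of Prss28 in replicate 3 or of Prss29 in replicate 4. These proteases and Spink1 make up most of the gland sum in the controls and in mutant replicate 1, but not in the other mutants. Foxa2, a gland regulator, was lower in all 4 mutants (1.76 to 11.4 CPM against 32.6 to 69.6 CPM in controls). The gland markers Cxcl15, Aldh1a1 and Lgr5 were highest in mutant replicate 4, with Cxcl15 at 89.2 CPM against 4.16 to 10.3 CPM in controls and Aldh1a1 at 264 CPM against 24.3 to 52.6 CPM.

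The other secreted inhibitors were low. Sfrp1 ranged from 1.99 to 7.66 CPM in mutants against 4.01 to 4.37 CPM in controls, Sfrp2 from 0.0766 to 1.34 and 0.951 to 1.27 CPM, and Sfrp4 from 0.243 to 2.45 and 1.37 to 2.32 CPM. Wif1, a secreted Wnt-binding inhibitor, lay at 1.25, 0.306, 0.699 and 14.1 CPM in mutants and at 0.737, 0.739 and 0.136 CPM in controls. Its high value came from 1 library, mutant replicate 4, and did not pass (2.93 ± 1.42 SE, edgeR adjusted p = 0.207), and the value was 0.50 without that library.

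The mutants differed widely among themselves, as the plot of single mutant libraries shows. Mutant replicate 1 held the highest or the lowest mutant value for 23 of the 31 tested members, and for 69.9% of all genes tested. It was the highest for 13, among them Wnt5a, Wnt5b, Wnt11, Rspo1, Lgr4, Fzd6, Znrf3 and Dkk3, and the lowest for 10, among them Wnt7a, Wnt7b, Fzd1, Fzd2, Fzd8 and Fzd10. Mutant replicate 4 was highest for 10, among them Axin1, Axin2, Rnf43 and Wif1. Without mutant replicate 1, 10 of 32 tested members were called by edgeR, against 2314 higher and 2089 lower of all 14903 genes tested. Those members were Wnt7a, Fzd1 and Fzd2 as higher and Wnt9a, Rspo1, Fzd5, Lrp5, Axin1, Axin2 and Dkk3 as lower. Without it Wnt7b had a value of 0.54 (edgeR adjusted p = 0.0559), Fzd10 of −0.53, Fzd8 of −0.69 in place of −1.07, Lrp6 of −0.029 and Fzd7 of 0.049. The calls over all genes also rose without it, from 784 to 2314 higher and from 903 to 2089 lower, so the rise was not particular to the members.

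**Figure D4:**
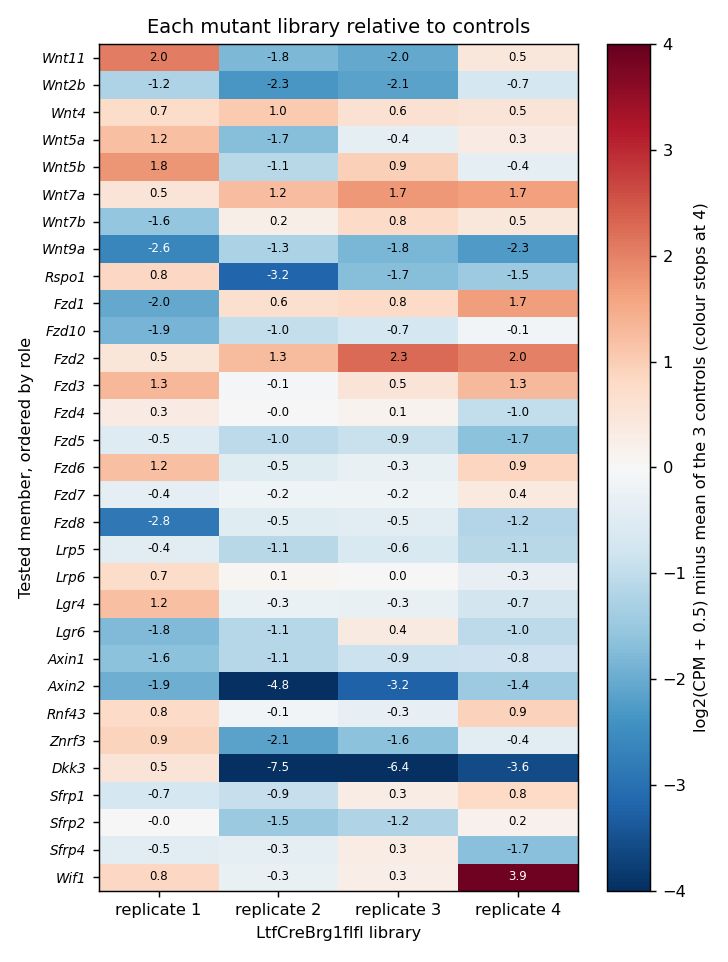
Log2(CPM + 0.5) of each mutant library minus the mean of the 3 controls, for the 31 tested members (rows, ordered by role) and the 4 mutant libraries (columns); red is above the controls and blue below, with the colour ending at 4. Wnt7a, Wnt4 and Fzd2 are above the control mean in all 4 libraries and Wnt9a, Wnt2b, Fzd5, Axin1 and Axin2 below, while Dkk3, Wnt11, Rspo1 and Znrf3 have opposite signs in replicate 1 and replicate 2.

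The rest of the pathway was read from 6 lists that share some genes. Of 99 other pathway genes, 86 were tested, and 1 passed as higher and 13 as lower. That is 1.16% higher, against 5.37% of all genes, and 15.1% lower, against 6.18%. Their median log2 fold change was 0.10, so most genes did not follow those that passed. The numbers were 9 higher and 19 lower without mutant replicate 1, and 9 higher and 4 lower under total count scaling.

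In the beta-catenin destruction complex, Apc, the partner of Axin, was lower along with Axin1. Apc lay at 309, 247, 228 and 229 CPM in mutants and 802, 668 and 575 CPM in controls (−1.43 ± 0.20 SE, edgeR adjusted p = 0.0100). The complex was not lower as a whole. Its kinases Gsk3a (0.16 ± 0.20 SE), Gsk3b (−0.05 ± 0.16 SE) and Csnk1a1 (0.04 ± 0.16 SE) did not pass. Amer1, of the same list, was higher in every mutant without passing (1.02 ± 0.30 SE, edgeR adjusted p = 0.0687). The kinase Csnk1e had a mean of 384 ± 53.4 CPM in controls (SD, n = 3) and fell to 197 ± 15.8 CPM in mutants (n = 4). Dvl1, which couples Frizzled to Axin, fell from 121 ± 15.4 to 64.5 ± 10.6 CPM, and the Dishevelled-binding Ccdc88c fell from 97.6 ± 8.50 to 54.9 ± 12.4 CPM. Beta-catenin itself (Ctnnb1) lay at 661, 1293, 1172 and 881 CPM in mutants and 1001, 767 and 1053 CPM in controls, with overlap, and did not pass (0.09 ± 0.28 SE, or −0.09 with unstranded counts). In all, 4 of 27 tested genes of signal transduction were lower and none higher. Of the 27, 14 had positive and 13 negative log2 fold changes (median 0.04).

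Among nuclear factors, 3 of 16 tested were lower and none higher. Of the 16, 11 had positive and 5 negative log2 fold changes (median 0.33). Bcl9, which ties beta-catenin to its coactivators, fell from 539 ± 114 to 180.5 ± 87.6 CPM, the corepressor Tle3 from 460.4 ± 94.8 to 225 ± 46.9 CPM, and the acetyltransferase Crebbp from 189 ± 18.3 to 108 ± 10.2 CPM (SD, n = 3 and 4). Lef1 lay at 0 to 1.46 CPM in mutants against 0.272 to 0.421 CPM in controls and was not tested. In the authors' deposited DESeq2 comparison, Bcl9, Tle3 and Crebbp were lower. Bcl9l (0.90, adjusted p = 0.0241), Chd8 (0.65, 0.00983) and Tbl1x (0.35, 0.0432) were higher there. Of all genes in that comparison, 8.85% were higher and 8.34% lower. Of 19 tested Wnt targets, 3 were lower and none higher: Sox9 (−1.63), Fosl1 (−1.40) and Myc (−0.94). Of the 19, 9 had positive and 10 negative log2 fold changes (median −0.06), so the targets did not fall as a whole. Sp5, another target of beta-catenin, lay at 2.65, 0.306, 0.909 and 6.75 CPM in mutants and 16.7, 21.8 and 14.8 CPM in controls. As with Axin2, mutant replicate 4 was its highest and replicate 2 its lowest mutant value, and it did not pass (−2.73 ± 0.85 SE, edgeR adjusted p = 0.0791). Lgr5, a target and the stem cell receptor for R-spondins, lay at 44.3, 0.842, 2.94 and 49.3 CPM in mutants and 9.74, 14.7 and 8.76 CPM in controls. Its mutants fell on both sides of the controls (1.14 ± 1.19 SE). Tnfrsf19, also of the target list, lay at 17.9, 2.76, 28.5 and 86.4 CPM in mutants against 4.58 to 7.87 CPM in controls. It did not pass (2.33 ± 0.98 SE, edgeR adjusted p = 0.153).

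Among other surface proteins, Kremen1, a receptor for Dickkopf proteins, was the 1 of 14 tested that passed. It fell from 124 ± 8.54 to 52.3 ± 13.7 CPM (−1.25 ± 0.23 SE, edgeR adjusted p = 0.0203). Of 11 planar polarity genes, the formin Daam1 (−0.96 ± 0.17 SE) and the scaffold Scrib (−0.68 ± 0.15 SE) were lower. In Wnt secretion, Tmed5, a cargo receptor of the early secretory pathway, rose from 94.4 ± 14.2 to 174 ± 35.0 CPM (0.88 ± 0.22 SE, edgeR adjusted p = 0.0461). The Wnt carrier Wls (0.20 ± 0.20 SE), the acyltransferase Porcn (0.18 ± 0.36 SE) and the Wnt-inactivating Notum (0.78 ± 0.89 SE) did not pass. Leaving out any 1 control ended all 14 calls in these lists, apart from that of Apc without control replicate 3 (edgeR adjusted p = 0.0465). Over all genes it left 45 to 57 called higher, from 784, and 84 to 112 called lower, from 903. The loss was thus not particular to these lists or to the members.

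**Figure D5:**
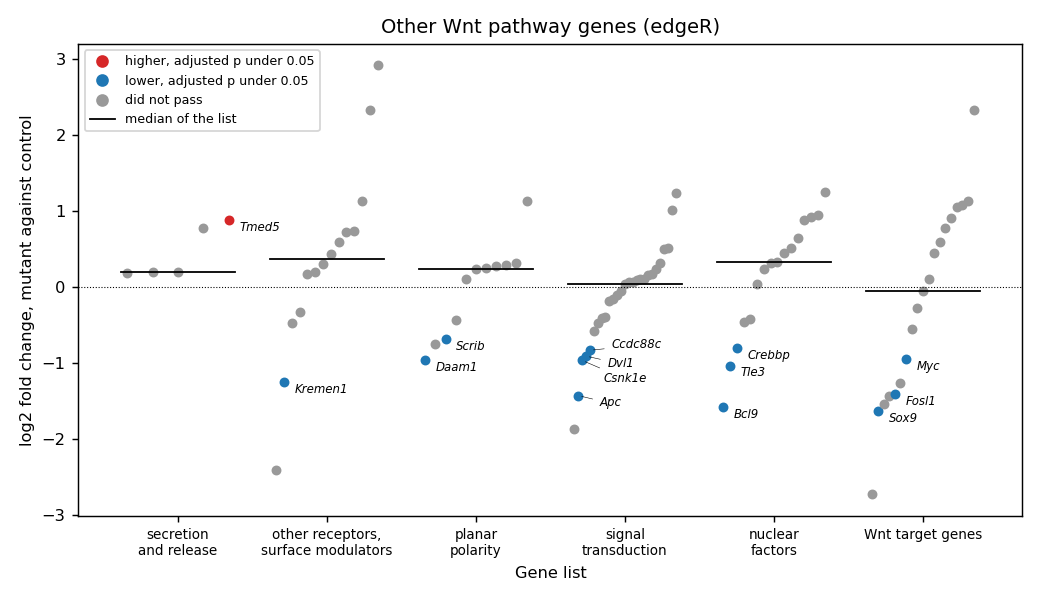
Log2 fold change, LtfCreBrg1flfl against Control (y axis, edgeR), of the tested pathway genes outside the 50 members, by list (x axis); a gene in more than 1 list is drawn in each, bars are list medians and named points passed. Apart from Tmed5 (0.88), the genes that passed lie below 0, from Scrib (−0.68) to Sox9 (−1.63), while list medians lie between −0.06 and 0.37.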

How the data were processed

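RNA from 4 mutant and 3 control libraries was compared. For each library the authors deposited read counts per gene, unstranded and by strand (STAR's gene count layout). The submitters' processing notes name cutadapt, Trim Galore, FastQC, STAR, DESeq2 and the build mm10, without versions. The authors also deposited the log2 fold changes, standard errors and adjusted p-values of a DESeq2 comparison, for which the sources used here give no settings.

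Here the reverse-strand counts were used, which hold 94.8% to 95.6% of stranded gene reads. Lines that name no gene were left out: unmapped reads (3.90% to 6.70% of all), multimapping reads (8.45% to 11.2%), reads in no gene (10.5% to 14.7%) and ambiguous reads (0.827% to 1.29%). Symbols came from GENCODE M21 for 53274 of 53379 gene IDs. Genes passing edgeR's filter (filterByExpr) were tested with edgeR 4.0.16 (TMM, quasi-likelihood, R 4.3.3) over both groups without covariates, and p-values were adjusted by Benjamini-Hochberg over all 14610 genes, with a threshold of 0.05. Errors of fold changes are standard errors from that model. DESeq2 1.42.0 and limma 3.58.1 were alternatives, beside other scalings and filters, a replicate block and leaving out each library. The test was checked on simulated counts. Promoters came from a RefSeq table (GRCm38.p6), of which the 50 bases after the start were left out.

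The members and lists were chosen with earlier results of these data known. By rule, members at 10 CPM or more, or past the test, are given per library, those from 1 to 10 CPM mostly by range, and pathway genes when past the test, with Ctnnb1, Lgr5, Lef1, Wls, Porcn and Notum added. Sp5, Tnfrsf19, Bcl9l, Chd8, Tbl1x, Gsk3a, Gsk3b, Csnk1a1, Amer1 and the single marker genes were chosen after their values were seen. So were the per-library values of Fzd2, Rspo1 and Wif1.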

Additional observations from a re-analysis of the deposited data

How the results depend on the processing

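Counts of calls depended on the processing more than directions did. Upper-quartile scaling gave 2 members higher, with 3 other pathway genes and 1178 of all genes higher. Total count scaling gave 3 members higher and 1 lower, 9 pathway genes higher and 4 lower, and 2202 of all genes higher and 532 lower. Without the filter on low counts, 0 members, 0 pathway genes and 355 of all genes were higher. DESeq2 gave 2 members higher and 4 lower, 7 pathway genes higher and 19 lower, and 1656 of all genes higher and 1619 lower. With limma-voom, 4 members were lower. Leaving out 1 library at a time gave 0 to 3 members higher and 0 to 7 lower, 0 to 9 pathway genes higher and 0 to 19 lower, and 45 to 2314 of all genes higher and 84 to 2089 lower. Each upper end came from leaving out mutant replicate 1.

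With the replicate number as a block (replicate block), edgeR called 0 members and 0 pathway genes in either direction, and 2 of all genes higher and 0 lower. Mutant replicate 4 has no control of its number and adds nothing to the blocked comparison, which also leaves less from which to estimate the spread. Same-numbered libraries deviated with correlations of −0.02, −0.36 and 0.16, and the labels tie them to no shared litter, batch or day, so they share only a number. Under the block, signs turned for Fzd1 (−0.10), Lgr5 (−1.20), Notum (−0.76), Porcn (−0.17), Wnt11 (−0.85), Wnt5a (−0.25) and Wnt7b (−0.16).

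Signs also turned under limma-voom for Lgr4 (−0.034), Lgr5 (−0.25), Wnt11 (−0.38), Wnt5a (−0.12) and Wnt7b (−0.026), with unstranded counts for Ctnnb1 (−0.090), and for Fzd7 under upper-quartile (0.042) and total count scaling (0.27). Alternatives were followed for 53 genes, which leave out most members given by range, Wnt5b among them. Leaving out 1 library at a time, values of the followed genes spanned 0 for Ctnnb1 (−0.046 to 0.29), Fzd7 (−0.28 to 0.19), Lgr4 (−0.43 to 0.44), Lrp6 (−0.029 to 0.33), Notum (−0.63 to 1.14), Porcn (−0.069 to 0.38), Wnt11 (−0.62 to 0.97), Wnt5a (−0.36 to 0.50) and Wnt7b (−0.048 to 0.54). None of these genes passed the test with all libraries. The causes were not tested. Over 53 genes, alternatives that kept all libraries left 454 values on the same side of the threshold with the same direction, 40 no longer passing, 18 newly passing and 15 with the sign turned. Leaving out a library left 254 values on the same side with the same direction, 91 no longer passing, 15 newly passing and 11 with the sign turned.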
